A study of Mus musculus with 22 samples.

Results

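The genes described here are 9 genes of the complement system: C1qa, C1qb and C1qc, C2, C4b, C3, Cfb, and the receptors C3ar1 and C5ar1. They were taken by gene symbol from the deposited count table, which held all 9 among its 23420 symbols, and all 9 passed the filter on low counts that kept 14458 genes. The libraries came from inguinal white adipose tissue (IWAT) of 11 wildtype C57Bl/6 females, of which 5 were lean on chow and 6 obese on a high fat diet (HFD). The diets ran for 16 weeks. Each mouse, about 20 weeks old, received cells of the mouse mammary cancer line E0771 in PBS and Matrigel in the left pad (tumor-associated IWAT) and PBS with Matrigel alone in the right pad (control IWAT). Both pads were taken after 2 weeks, so that control IWAT came from tumor-bearing mice and had itself been injected. The lymph node and the sheet of fat next to the tumor had been removed, and total RNA was depleted of ribosomal RNA before sequencing. Groups are called lean control and lean tumor-associated (5 libraries each) and obese control and obese tumor-associated (6 each).

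Complement is a cascade of plasma proteins that is triggered along the classical, lectin and alternative pathways, all of which meet at the cleavage of C3. C1q, built from the chains that C1qa, C1qb and C1qc encode, recognizes immune complexes and dying cells and starts the classical pathway, in which C2 and C4 form the C3 convertase. Factor B (Cfb) forms the convertase of the alternative pathway after cleavage by factor D, the adipocyte-secreted protease adipsin. The small fragments released from C3 and C5 act on C3ar1 and C5ar1, receptors of myeloid cells. Macrophages are a main source of C1q, while C3, C4 and factor B are made by the liver and also by many stromal cells, adipose tissue included.

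The genes of the C1q chains lie side by side on the minus strand of chromosome 4 in GENCODE M21 on GRCm38 (mm10), C1qb at chr4:136880129-136886187, C1qc at chr4:136889804-136893065 and C1qa at chr4:136895917-136898803. C4b (chr17:34728380-34743882), Cfb (chr17:34856374-34862518) and C2 (chr17:34862604-34898265) share a stretch of chromosome 17, while C3 (chr17:57203970-57228136), C3ar1 (chr6:122847138-122856161) and C5ar1 (chr7:16246743-16259540) stand alone. All are protein-coding genes on the minus strand. Promoter windows of 250 bases before to 50 after the start were taken from RefSeq (GRCm38.p6) for 5 of the 9 genes (C1qb, C1qc, C3, C3ar1 and C5ar1). C1qa, C2, C4b and Cfb had no entry. Both strands were searched for GAGGAA (the core of the site of PU.1, a factor of myeloid cells), TTGCNNAA (C/EBP), TTCNNNGAA (STAT), GAAA and GAAA with any 2 bases between them (interferon-stimulated response element, ISRE), and GGGA and TTTCC with any 1 base between them (kappaB). The windows of C1qb and C1qc are shown because these neighbours changed together, and that of C3 because it did not change with them. Capitals mark the matches, GAGGAA from base -30 of C1qb, its reverse complement from base -193 of C1qc, and the C/EBP letters from base -45 of C3, counted to the annotated start.
C1qb: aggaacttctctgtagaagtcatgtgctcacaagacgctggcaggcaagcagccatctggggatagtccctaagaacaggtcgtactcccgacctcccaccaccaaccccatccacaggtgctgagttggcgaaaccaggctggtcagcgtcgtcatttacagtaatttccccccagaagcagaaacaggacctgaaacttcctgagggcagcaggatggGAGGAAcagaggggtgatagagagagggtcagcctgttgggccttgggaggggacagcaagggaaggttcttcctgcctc
C1qc: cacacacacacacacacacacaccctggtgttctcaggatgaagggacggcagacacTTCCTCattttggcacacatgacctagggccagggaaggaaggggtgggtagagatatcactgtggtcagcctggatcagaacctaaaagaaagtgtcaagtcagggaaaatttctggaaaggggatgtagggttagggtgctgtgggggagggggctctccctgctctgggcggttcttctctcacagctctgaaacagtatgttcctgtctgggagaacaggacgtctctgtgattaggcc
C3: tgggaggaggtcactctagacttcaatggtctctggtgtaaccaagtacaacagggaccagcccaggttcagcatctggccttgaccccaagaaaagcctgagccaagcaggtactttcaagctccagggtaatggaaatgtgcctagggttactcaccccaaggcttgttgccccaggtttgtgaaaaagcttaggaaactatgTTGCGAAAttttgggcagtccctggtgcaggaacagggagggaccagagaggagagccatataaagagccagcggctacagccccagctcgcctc
These windows are chr4:136886151-136886450, chr4:136892865-136893164 and chr17:57228087-57228386, each on the minus strand and printed 5′ to 3′. GAGGAA was present in 28.3% and the C/EBP letters in 10.8% of 32817 promoter windows of the same length, so that each match is a description and not a binding site. The ISRE letters were in 3.43%, the STAT letters in 8.29% and the kappaB letters in 0.411% of them. The windows of C3ar1 and C5ar1 held none of the 5 motifs.

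The libraries held 5759775 to 8598108 counts on genes. Levels are CPM (counts relative to the TMM-normalized library total), and changes are given as log2 fold changes with their standard error (SE) from edgeR's quasi-likelihood test over all 22 libraries, called at a Benjamini-Hochberg adjusted p under 0.05. The tissue label was checked with adipocyte markers: 8 of 8 were counted in every library, with a summed level of 1865 to 23796 CPM. The obese tumor-associated libraries stood apart on the first principal component (45.7% of the variance), at 27.2 to 147.8 against -59.0 to 1.32 for all others. Mouse 4 among them had the lowest summed adipocyte (1865 CPM), fibroblast (4115 CPM) and macrophage (1217 CPM) markers of its group. The control pads of obese mice 1 and 3 stood apart in lymphocyte markers, with 473 and 439 CPM over 5 B cell genes against at most 10.5 CPM in the other 4 obese control pads, and 177 and 179 CPM over 5 T cell genes against at most 7.93 CPM. Many, though not all, of the counts and calls that changed without these libraries are given beside the results below.

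C3 and C4b were the most abundant of the 9 transcripts by CPM, at ranks 45 and 57 of 14458 genes, and C5ar1 the least, at rank 5910. Per kilobase of exon, the order of the genes differed between the ends of the design. In lean control IWAT, C3 led with a mean of 312 CPM per kb, before C4b (140), C1qa (103), C1qb (89.1), Cfb (75.02), C1qc (41.8), C2 (20.9), C3ar1 (5.53) and C5ar1 (4.44). In obese tumor-associated IWAT, C1qa (344 CPM per kb) and C1qb (305) led, before C4b (191), C3 (153), C1qc (148), Cfb (145), C3ar1 (43.0), C5ar1 (27.4) and C2 (17.1). By this measure C3 moved from the first to the fourth place and C2 from the seventh to the last. The exon length was that of all annotated exons of a gene in GENCODE M21 merged, 1040 bases for C1qa, 1931 for C1qc and 3872 for C2. The transcripts present may be shorter, so that places between genes depend on this length, above all those of C3, C1qc and Cfb, which lay close together. The sum of the 9 transcripts was 3016 ± 697 CPM (SD, n = 5) in lean control, 5059 ± 1145 (n = 5) in lean tumor-associated, 2719 ± 484 (n = 6) in obese control and 3583 ± 1437 CPM (n = 6) in obese tumor-associated IWAT.

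**Figure D1:**
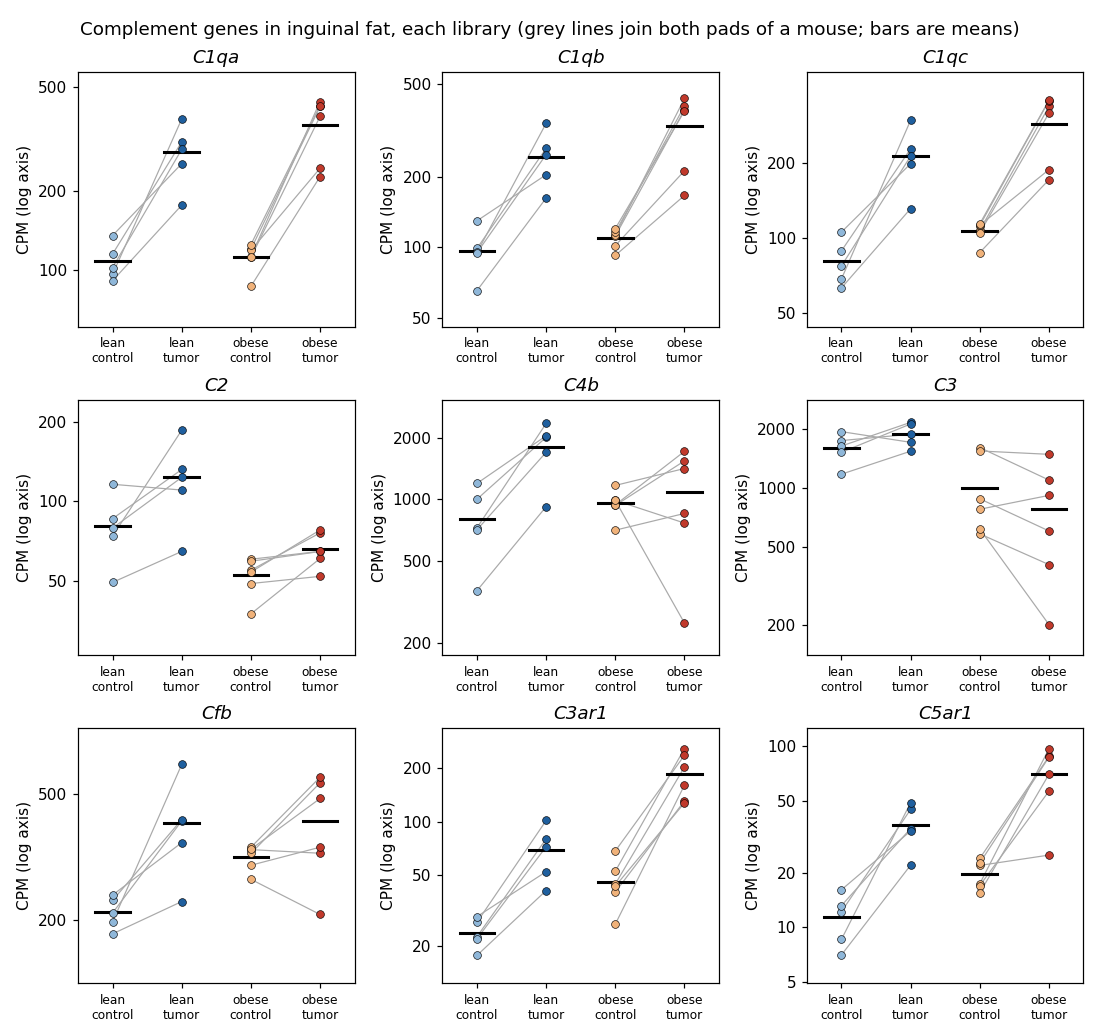
Expression of the 9 complement genes in each of 22 libraries, as CPM on a log axis that differs between panels. Points are libraries, black bars are group means, and grey lines join the control and tumor-associated pad of a mouse. The C1q chains and both receptors lie higher in every tumor-associated pad than in the control pad of the same mouse, whereas C3 falls in 5 of 6 obese mice.

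In lean mice, 6 of the 9 genes rose on the tumor side (C1qa, C1qb, C1qc, Cfb, C3ar1 and C5ar1) and none was lower, where 3.27% of all genes were called higher and 0.913% lower. In obese mice, 5 of the 9 were higher (the same genes without Cfb) and none was lower, where 26.8% of all genes were called higher and 27.7% lower. The median log2 fold change of the 9 was 1.34 in lean and 1.43 in obese mice, against 0.01 and -0.02 over all genes. The groups did not overlap for the C1q chains and the receptors in either diet, 5 of 9 genes, where 5.33% of all genes in lean and 9.95% in obese mice were higher without overlap. In bulk tissue, more cells of a type and more RNA per cell cannot be told apart.

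The C1q chains rose together in both diets. C1qb was 99.1, 95.2, 94.9, 65.3 and 130.0 CPM in the control pads of lean mice 0, 2, 3, 6 and 9, and 266, 341, 250, 163 and 205 CPM in their tumor-associated pads. In obese mice it ranged from 92.4 (median 113) to 120 CPM in control and from 167 (median 387) to 435 CPM in tumor-associated IWAT. Every tumor-associated pad was thus above every control pad of both diets, with lean mice 6 and 9 and obese mice 2 and 4 at the low end. The log2 fold change of C1qb was 1.34 (SE 0.24, edgeR adjusted p = 0.00245) in lean and 1.60 (0.22, 1.76e-05) in obese mice. C1qa changed by 1.39 (0.20, edgeR adjusted p = 0.000422) and 1.68 (0.18, 2.32e-06), and C1qc by 1.398 (0.22, 0.000747) and 1.43 (0.20, 1.93e-05). The 3 chains were higher in 5 of 5 lean and 6 of 6 obese mice and were called in every alternative.

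The transcripts of the chains, which form the C1q protein together, kept nearly the same proportions. The log2 ratio of C1qa to C1qb within a library was 0.13 ± 0.15 (SD, n = 22 libraries; range -0.11 to 0.47) and that of C1qc to C1qb -0.17 ± 0.14 (range -0.47 to 0.14). Their log2 CPM profiles, centred on each gene's mean, differed by a root mean square of 0.138 to 0.154 over the 22 libraries, less than any other pair among the 9 genes. The closest other genes by this measure were Ctsc (0.164), the lysosomal protease cathepsin C, for C1qa, and Fcgr3 (0.208 and 0.206), an Fc receptor of myeloid cells, for C1qb and C1qc. Properdin (Cfp), the plasma protein that stabilizes the alternative convertase, was among the 3 closest to C1qa and C1qb.

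**Figure D2:**
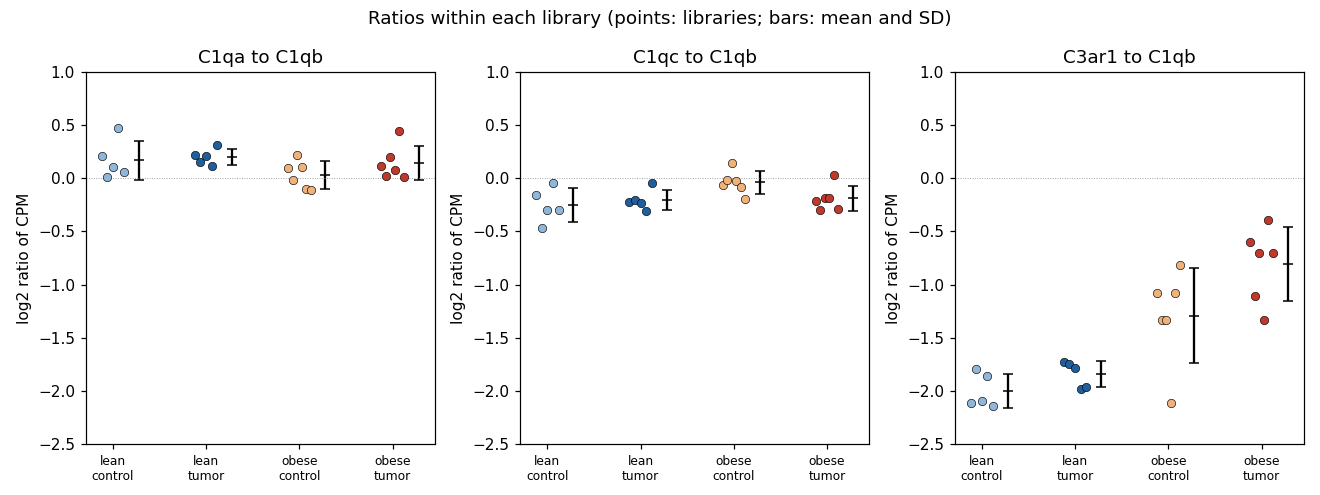
Log2 ratios of CPM within each library for C1qa to C1qb, C1qc to C1qb and C3ar1 to C1qb, on a shared axis. Points are libraries, and the bars beside them are group means with SD. The ratios between C1q chains stay between -0.47 and 0.47, whereas the mean of C3ar1 to C1qb goes from -2.0 in lean control to -0.81 in obese tumor-associated IWAT.

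C3ar1, the receptor of the C3a fragment, had the largest SD of log2 CPM of the 9 genes over the 22 libraries (1.13). In lean mice 0, 2, 3, 6 and 9 it was 22.6, 27.3, 22.1, 17.8 and 29.3 CPM in control and 80.0, 101, 72.3, 41.1 and 52.4 CPM in tumor-associated IWAT. In obese mice it ranged from 26.6 (median 44.1) to 68.5 CPM in control and from 127 (median 181) to 256 CPM in tumor-associated IWAT. The 6 obese tumor-associated libraries were thus above all 16 others (11.0% of all genes were higher in obese than in lean tumor-side libraries without overlap), while lean tumor-associated and obese control libraries overlapped. The tumor-associated pad was higher by 1.54 (log2, SE 0.26, edgeR adjusted p = 0.00167) in lean and 2.01 (0.24, 4.62e-06) in obese mice, in 5 of 5 and 6 of 6 mice. It was also higher in obese than in lean mice, by 0.95 (0.25, edgeR adjusted p = 0.0137) in control and 1.42 (0.25, 0.000165) in tumor-associated IWAT. C3ar1 was the only one of the 9 genes called in all 4 of these comparisons, and kept each call in every alternative, with adjusted p up to 0.0450 in control IWAT.

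C5ar1, the receptor of C5a on neutrophils and macrophages, followed a like course at a lower level. In lean mice 0, 2, 3, 6 and 9 it was 12.2, 8.57, 13.2, 7.04 and 16.1 CPM in control and 44.7, 48.7, 35.0, 22.01 and 34.0 CPM in tumor-associated IWAT. In obese mice it was 15.5 (median 19.7) to 24.0 CPM in control and 25.03 (median 78.3) to 96.5 CPM in tumor-associated IWAT, where mouse 4 was the lowest and stood just above the control pads. C5ar1 rose by 1.69 (log2, SE 0.30, edgeR adjusted p = 0.00231) in lean and 1.83 (0.27, 3.00e-05) in obese mice. Obese mice were higher than lean mice in tumor-associated IWAT, by 0.93 (0.27, edgeR adjusted p = 0.00841), and in control IWAT the difference of 0.78 (0.29) did not pass (0.0638). That difference was called with DESeq2 (adjusted p = 0.0414), in a fit to the 11 control libraries alone (edgeR 0.0151), without lean control mouse 9 (0.0443) and without obese tumor-associated mouse 4 (0.0150).

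The closest genes to C3ar1 over the 22 libraries were Lgmn, the lysosomal protease legumain, Hk3, a hexokinase of myeloid cells, and Lilrb4, at 0.242 to 0.274. Those to C5ar1 were the chemokine Ccl9, the endosomal receptor Tlr8 and Itgam, a subunit of complement receptor 3, at 0.293 to 0.317. Set against C1qb in the same library, both receptors had a higher mean ratio in obese mice in each pad. The log2 ratio of C3ar1 to C1qb was -2.0 ± 0.16 (n = 5) in lean control, -1.84 ± 0.12 (n = 5) in lean tumor-associated, -1.29 ± 0.45 (n = 6) in obese control and -0.81 ± 0.35 (n = 6) in obese tumor-associated IWAT. All 6 obese tumor-associated libraries exceeded all 10 lean ones in this ratio, which was not tested.

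Most macrophage markers were also higher on the tumor side. Of 8 markers (Emr1, Cd68, Csf1r, Mertk, Fcgr1, Mrc1, Cd163 and Lyz2), 5 were higher in lean and 6 in obese tumor-associated IWAT and none was lower, where 3.27% and 26.8% of all genes were called higher. Mertk was at 0.26 in lean and -0.16 in obese mice, neither called. The summed level of the 8 was 645 to 1395 CPM in lean control, 1399 to 2973 in lean tumor-associated, 1080 to 1449 in obese control and 1217 to 3956 CPM in obese tumor-associated libraries, and none of the 8 was at 0 in any library. In obese mouse 4 the sum was 1080 CPM in control and 1217 CPM in tumor-associated IWAT. In the same pads C1qa was 86.3 and 227 CPM, and C3ar1 43.4 and 127 CPM. Neutrophil markers were near 0, with a sum of at most 29.8 CPM over 7 genes, Camp at 0 in 21 libraries and Ngp in 16. Of the 7, S100a8 and Csf3r passed the filter, and Csf3r, a receptor gene of neutrophils, was higher in tumor-associated IWAT, at a mean of 13.03 against 5.13 CPM in lean mice (log2 1.34, edgeR adjusted p = 0.00857) and 18.7 against 6.16 CPM in obese mice (1.60, 6.31e-05). Its part in the C5ar1 change was not tested. The part of macrophage number in the C1q and receptor changes was not tested.

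The convertase components of the classical pathway did not pass the test between pads in either diet. C4b was 1001, 726, 710, 358 and 1195 CPM in control and 2006, 2345, 1696, 920 and 2041 CPM in tumor-associated IWAT of lean mice 0, 2, 3, 6 and 9. In obese mice it was 707 (median 963) to 1168 CPM in control and 249 (median 1133) to 1713 CPM in tumor-associated IWAT. All 5 lean mice had more in the tumor-associated pad, though mouse 6 in that pad fell within the control range, and among obese mice 4 of 6 did, with mouse 4 far below its control pad. The lean difference was 1.17 on the log2 scale (SE 0.38, edgeR adjusted p = 0.0891). It was called with DESeq2 (adjusted p = 0.0351), in a fit to the 10 lean libraries only (edgeR 0.0400), and without lean tumor-associated mouse 6 (0.0420) or obese tumor-associated mouse 4 (0.0193). In obese mice the value was 0.19 (0.34, edgeR adjusted p = 0.657). Transcripts of C4b and its copy C4a were identical at 95.95% of 5378 aligned bases, and 6 to 19 reads per library were counted on C4a against 1839 to 15084 on C4b, so that reads of the pair may be misassigned or left out.

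C2, the protease of the classical convertase, differed by diet. In lean mice 0, 2, 3, 6 and 9 it was 116, 74.0, 79.3, 49.5 and 86.1 CPM in control and 110, 186, 123, 64.7 and 132 CPM in tumor-associated IWAT. In obese mice it was 37.6 (median 54.6) to 60.5 CPM in control and 52.1 (median 64.7) to 78.0 CPM in tumor-associated IWAT. Between diets the pads overlapped through lean mouse 6, the lowest of the lean mice in both pads. C2 was lower in obese tumor-associated IWAT by a log2 difference of -0.90 (SE 0.21, edgeR adjusted p = 0.00178), a call kept in every alternative. In control IWAT the value was -0.62 (0.21, edgeR adjusted p = 0.0465), and this call was lost without any 1 of 14 libraries, with adjusted p up to 0.163 without lean control mouse 0. Those were lean control mice 0, 2, 3 and 9, lean tumor-associated mice 3 and 9, obese control mice 0, 1, 3, 4 and 8, and obese tumor-associated mice 2, 3 and 8. The call was also lost without the control pads of obese mice 1 and 3 together (edgeR adjusted p = 0.0894), and without both pads of obese mouse 4 (0.0725). The tumor-associated pad exceeded the control pad by 0.60 (0.22, edgeR adjusted p = 0.147) in lean and 0.33 (0.20, 0.173) in obese mice, neither called, except in lean mice without tumor-associated mouse 6 (0.77, 0.0236).

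C3, on which all the pathways converge, was lower on the tumor side of obese mice than of lean mice. It was 1881, 2162, 2121, 1541 and 1711 CPM in tumor-associated IWAT of lean mice 0, 2, 3, 6 and 9, and 407, 1098, 604, 1485, 201 and 917 CPM in that of obese mice 0, 1, 2, 3, 4 and 8. The groups did not overlap (13.4% of all genes were lower without overlap), with obese mouse 3 just below lean mouse 6, and mouse 4 the lowest. The difference was -1.26 on the log2 scale (SE 0.36, edgeR adjusted p = 0.00775). This call held in every alternative.

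In control IWAT, C3 was 1746, 1637, 1521, 1176 and 1939 CPM in lean mice 0, 2, 3, 6 and 9, and 583, 1609, 881, 1545, 618 and 779 CPM in obese mice 0, 1, 2, 3, 4 and 8. Obese mice 1 and 3 lay within the lean range, and the other 4 below it. The difference of -0.68 (log2, SE 0.36) did not pass (edgeR adjusted p = 0.209). Without the control pads of mice 1 and 3, whose lymphocyte markers were high, it was -1.17 (edgeR adjusted p = 0.0480), and the part of lymph node tissue was not tested.

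Between pads, C3 was lower on the tumor side in 5 of 6 obese mice and higher in 4 of 5 lean mice. The difference was -0.35 (log2, SE 0.35, edgeR adjusted p = 0.403) in obese mice. With the mouse as a block it was -0.50 and was called (edgeR adjusted p = 0.0480), and without the control pads of mice 1 and 3 it was 0.12 (0.787). In lean mice it was 0.23 (0.38, edgeR adjusted p = 0.923). The genes closest to C3 over the 22 libraries were Rtn1, Wdr86 and Socs2, at 0.361 to 0.406, which is farther than the closest neighbours of any other of the 9 genes.

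Cfb, the protease of the alternative convertase, rose in lean tumor-associated IWAT. It was 211, 197, 231, 181 and 240 CPM in control and 411, 618, 415, 229 and 351 CPM in tumor-associated IWAT of lean mice 0, 2, 3, 6 and 9. In obese mice it was 269 (median 329) to 339 CPM in control and 208 (median 411) to 564 CPM in tumor-associated IWAT. The lean groups overlapped only through mouse 6, and every obese control pad exceeded every lean control pad. The rise was 0.93 (log2, SE 0.23, edgeR adjusted p = 0.0267) in lean mice, in 5 of 5 mice. The call was lost without any 1 of 7 libraries, lean control mice 0, 2, 3 and 6 or lean tumor-associated mice 0, 2 and 3, with a value of 0.71 and an adjusted p of 0.131 without tumor-associated mouse 2.

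In obese mice Cfb differed between pads by 0.37 (0.21, edgeR adjusted p = 0.137), or 0.49 (0.0314) without tumor-associated mouse 4. Obese control IWAT exceeded lean control IWAT by 0.58 (0.22, edgeR adjusted p = 0.0791) without overlap, where 7.44% of all genes were higher without overlap. That difference was called in a fit to the control libraries alone (edgeR adjusted p = 0.00134) and without obese tumor-associated mouse 4 (0.0310). The diets differed by 0.02 (0.22, edgeR adjusted p = 0.951) in tumor-associated IWAT. Slfn5 was the gene closest to Cfb (0.174). In GENCODE M21, C2 and Cfb both overlap Gm20547 on the same strand, and C2 overlaps Zbtb12 on the other, so that part of their reads may belong elsewhere.

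Relative to each other, the components shifted with diet and pad. The log2 ratio of C3 to Cfb within a library fell from 2.91 ± 0.18 (n = 5) in lean control over 2.28 ± 0.34 (n = 5) in lean tumor-associated and 1.55 ± 0.59 (n = 6) in obese control to 0.74 ± 0.52 (n = 6) in obese tumor-associated IWAT. The ratio of Cfb to C2 was 1.43 ± 0.36 and 1.72 ± 0.19 in lean and 2.59 ± 0.19 and 2.56 ± 0.43 in obese control and tumor-associated IWAT. In the lean groups this ratio was at most 1.89, which all obese libraries except 1 exceeded. These ratios are descriptions without a test.

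Between diets, 2 of the 9 genes were called in control and 4 in tumor-associated IWAT. In control IWAT 1 was higher in obese mice (C3ar1), where 9.54% of all genes were called higher, and 1 lower (C2), where 7.53% were. In tumor-associated IWAT 2 were higher (C3ar1 and C5ar1) and 2 lower (C2 and C3), where 24.7% of all genes were called higher and 22.4% lower, so that the share of members called was close to the background. The median log2 fold change of the 9 was 0.26 in control and 0.35 in tumor-associated IWAT, against 0.04 and 0.03 over all genes. The C1q chains differed between diets by 0.06 to 0.40 in control and 0.35 to 0.44 in tumor-associated IWAT, with edgeR adjusted p of 0.0872 to 0.135 in the latter. Without lean tumor-associated mouse 2 or obese tumor-associated mouse 4, all 3 chains passed on that side as higher in obese mice, with edgeR adjusted p of 0.0222 to 0.0498.

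**Figure D3:**
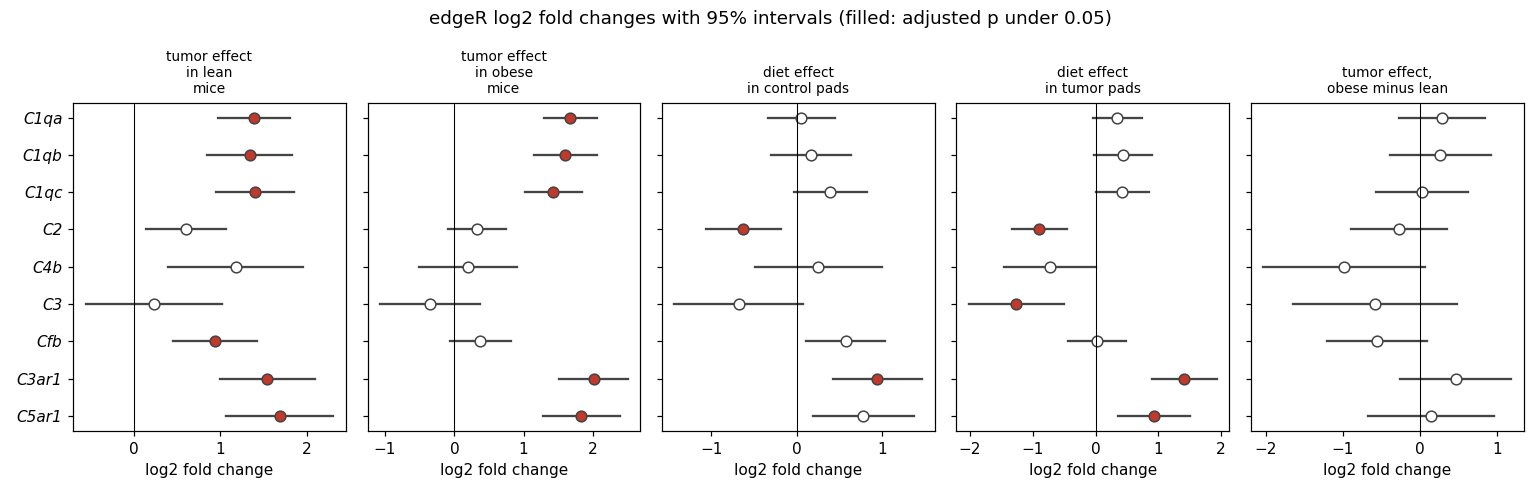
Log2 fold changes of the 9 genes in 5 comparisons, from edgeR over all 22 libraries, with 95% intervals. Filled points have an adjusted p under 0.05. The C1q chains and receptors are filled in both tumor comparisons, C2 and C3 lie on the negative side between diets, and no point is filled for the obese minus lean tumor effect.

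Some cell type markers differed between diets. Of the 8 macrophage markers, 3 were higher in tumor-associated IWAT of obese mice (Emr1 by 0.91, Cd68 by 1.43 and Fcgr1 by 1.10 on the log2 scale) and 2 in control IWAT (Cd68 by 1.62 and Mertk by 0.88). In these comparisons 24.7% and 9.54% of all genes were called higher. The part of macrophages in the C3ar1 and C5ar1 differences was not tested. In tumor-associated IWAT, 4 of 7 fibroblast markers and 7 of 7 mammary epithelium markers were lower in obese mice, where 22.4% of all genes were. In control IWAT 0 of 7 fibroblast markers were called. The fibroblast sum was 10640 to 16141 CPM (median 12943) in lean and 4115 to 14558 CPM (median 12463) in obese tumor-associated libraries, with mouse 4 the lowest. Col3a1, the largest part of this sum, was not called between diets (-0.13). The epithelial sum was 768 to 1535 CPM in lean and 169 to 402 CPM in obese tumor-associated libraries. Of 8 adipocyte markers, 1 was higher and 1 lower in tumor-associated IWAT of obese mice. None of the fibroblast and adipocyte markers was at 0 in any library, and the part of these cell types in the C2 and C3 differences was not tested. Between pads, 8 of 8 adipocyte markers were lower in obese tumor-associated IWAT and 0 of 8 in lean mice, and 6 of 7 mammary epithelium markers were lower in obese mice and 0 of 7 in lean mice. Of all genes, 27.7% were called lower between pads in obese and 0.913% in lean mice. The fibroblast genes Col1a1 and Col3a1 were higher on the tumor side in both diets, while Dcn and Dpt were lower in obese mice. Control pads had a fibroblast sum of 5229 to 7695 CPM in lean mice, below all lean tumor-associated pads, and of 4191 to 9061 CPM in obese mice. Col3a1 alone had a mean of 3571 CPM in lean control and 8604 CPM in lean tumor-associated IWAT. Apart from Col1a1 and Col3a1, the other 5 fibroblast markers were not called between pads in lean mice. The part of these cell types in the differences between pads was not tested.

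None of the 9 genes differed between obese and lean mice in its tumor effect, where edgeR called 4.92% of all genes. None had an unadjusted p under 0.05 either, and DESeq2 called none. The differences ranged from -0.98 for C4b (SE 0.51, 95% interval -2.03 to 0.07, edgeR adjusted p = 0.177) to 0.47 for C3ar1 (0.35, -0.25 to 1.19, 0.346). The intervals of C1qa (-0.27 to 0.84), C1qb (-0.39 to 0.92) and C1qc (-0.57 to 0.63) left room for differences of either sign. Cfb was at -0.56 (-1.21 to 0.09) and C3 at -0.58 (-1.65 to 0.49). Without the control pads of obese mice 1 and 3, C3 was at -0.09 (edgeR adjusted p = 0.910).

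Of 41 further complement genes listed by role, 37 passed the filter. In lean mice, 2 were higher in tumor-associated IWAT and none lower. Cfp rose by 1.28 (log2, SE 0.29, edgeR adjusted p = 0.0155), and Itgam by 1.52 (0.26, 0.00167). Cfp was not called without lean control mouse 6 (1.17, edgeR adjusted p = 0.0558) or lean tumor-associated mouse 2 (1.13, 0.0690). These 2 were 5.41% of the 37, where 3.27% of all genes were higher, and without both pads of obese mouse 4 the number was 7. In obese mice, 6 were higher and 7 lower, or 16.2% and 18.9% of the 37, below the 26.8% and 27.7% of all genes. Without the control pads of obese mice 1 and 3, 5 were higher and 4 lower. In the fit to all libraries those higher were Fcna (1.72), the lectin pathway protein ficolin A, Cfp (1.51), C5ar2 (0.71), and 3 genes of C3 fragment receptors, Vsig4 (2.34), Itgam (2.23) and Itgb2 (1.04). Itgam overlaps another gene, Gm49368, on the same strand. C5ar2 was called in 22 of 30 alternatives, and not with the mouse as a block (0.60, edgeR adjusted p = 0.0826), nor without any 1 of obese control mice 0 and 2 and obese tumor-associated mice 0, 1 and 8, at 0.48 to 0.69.

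In obese tumor-associated IWAT, 2 of 6 genes of the terminal pathway and 4 of 11 regulators were lower, where 27.7% of all genes were. C6 and C7, components of the membrane attack complex, fell by 1.24 and 2.13 on the log2 scale, with C7 below 16 CPM throughout. Cd59a, Cd59b and Cd55, inhibitors on the cell surface, fell by 1.404, 1.27 and 0.87, the fluid-phase regulator Clu by 0.97 and the lectin Colec11 by 0.95. For Cd59a the level in control pads, taken at the same time as the tumor-associated pads, differed by diet. Obese control pads averaged 213 CPM and lean ones 83.1 CPM, a log2 difference of 1.36 (edgeR adjusted p = 0.00652). That difference was called in 29 of 29 alternatives. On the tumor side the Cd59a means were 80.3 CPM (obese) and 62.4 CPM (lean), which was not called (0.37, edgeR adjusted p = 0.356). Cd59b and Colec11 were low, with means of 3.33 and 2.76 CPM in obese control and 1.36 and 1.41 CPM in obese tumor-associated IWAT. Of the 7 genes lower on the tumor side, C6, C7, Cd59a and Cd59b were called in all 30 alternatives. Without the control pads of obese mice 1 and 3, Cd55 was at -0.35 (edgeR adjusted p = 0.402), Clu at -0.35 (0.149) and Colec11 at -0.88 (0.0750), and none of these 3 was called. Leaving out 1 library also ended the call of Cd55 (obese control mouse 1 or 3, obese tumor-associated mouse 0 or 2, at -0.86 to -0.68) and of Colec11 (obese control mouse 3 or 4, obese tumor-associated mouse 0, 4 or 8, at -0.92 to -0.79). In lean mice none of the 7 was called, with values from -0.70 for Cd59b to 1.29 for C6.

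Of the 37, 1 was called for a tumor effect that differed between diets (2.703%, where 4.92% of all genes were), and this was C6. Its level was 8.32 ± 4.396 CPM (SD, n = 5) in lean control, 20.6 ± 7.08 (n = 5) in lean tumor-associated, 42.6 ± 19.7 (n = 6) in obese control and 18.1 ± 7.34 CPM (n = 6) in obese tumor-associated IWAT. The tumor-associated pad was higher in 5 of 5 lean and lower in 6 of 6 obese mice. The difference between the effects was -2.52 (SE 0.55, edgeR adjusted p = 0.0373), and that between diets in control IWAT 2.33 (0.41, 0.000598). The difference between the effects was called in 17 of 29 alternatives, at -2.88 to -2.11 with adjusted p of 0.00138 to 0.0788. It was not called without the filter on low counts (0.0521), nor without any 1 of 11 libraries: mice 2, 3 and 6 of lean control, mice 0, 2, 3 and 9 of lean tumor-associated, mice 0 and 4 of obese control, and mice 0 and 2 of obese tumor-associated IWAT, with adjusted p of 0.0539 to 0.0788. The difference between diets in control IWAT was called in 29 of 29.

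Cfd, which encodes adipsin, the protease that activates factor B, was the complement gene with the largest fall between diets among those called. Its mean was 2985 ± 584 CPM (SD, n = 5) for lean control, 2518 ± 814 (n = 5) in lean tumor-associated, 685 ± 242 (n = 6) in obese control and 357 ± 240 CPM (n = 6) in obese tumor-associated IWAT. Lean and obese libraries did not overlap in either pad. Between diets it differed by -2.12 (log2, SE 0.44, edgeR adjusted p = 0.00247) in control and -2.82 (0.45, 7.53e-05) in tumor-associated IWAT. Cfd was called in 29 of 29 alternatives in both pads. Summed adipocyte markers were 9838 to 13650 CPM in lean and 13483 to 23796 CPM in obese control IWAT. Of the 8, Lep (2.61) and Cidec (1.32) were called higher in obese control IWAT and none lower, where 9.54% of all genes were called higher and 7.53% lower. Not called were Fabp4 at 0.62, Adipoq at 0.40, Lipe at 0.07, Pck1 at -0.24, Plin1 at -0.30 and Pnpla2 at -0.33. In tumor-associated IWAT the adipocyte sum was 5923 to 10638 CPM in lean and 1865 to 11822 CPM in obese libraries. The part of adipocytes in the Cfd differences was not tested.

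Between diets, 5 of the 37 were higher and 1 lower in control IWAT, and 5 higher and 5 lower in tumor-associated IWAT. In control IWAT these were 13.5% and 2.703% of the 37, beside 9.54% and 7.53% of all genes, and in tumor-associated IWAT 13.5% each way, beside 24.7% and 22.4%. In control IWAT 8 were higher and 1 lower without both pads of obese mouse 4, and 3 and 1 without the control pads of obese mice 1 and 3. The integrin genes Itgax and Itgb2, whose products form complement receptor 4, were higher in obese mice in both pads, by 0.95 and 1.28 in control and 1.77 and 1.41 in tumor-associated IWAT. Without the control pads of obese mice 1 and 3, Itgax in control IWAT was at 0.90 (edgeR adjusted p = 0.0842), and it was not called without any 1 of mice 0, 3 and 6 of lean control or 1 and 8 of obese control IWAT either. C1ra and C1s, the proteases that associate with C1q, were lower in obese tumor-associated IWAT, by -0.88 (0.26, edgeR adjusted p = 0.0101) and -0.91 (0.29, 0.0137), while the C1q chains were not called. In the fit to the compared groups alone neither passed (edgeR adjusted p = 0.0508 and 0.0683). Cr2, a receptor of B cells and follicular dendritic cells, reached 175 CPM in obese control IWAT with a group median of 1.64 CPM. The fit to all libraries called it in no comparison. Without the control pads of obese mice 1 and 3, its difference between diets in control IWAT went from 4.77 to -0.95. That between pads of obese mice went from -2.95 to 2.75. These were called in 5 of 29 and 2 of 29 alternatives, and the diet difference in tumor-associated IWAT in 1 of 28.

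**Figure D4:**
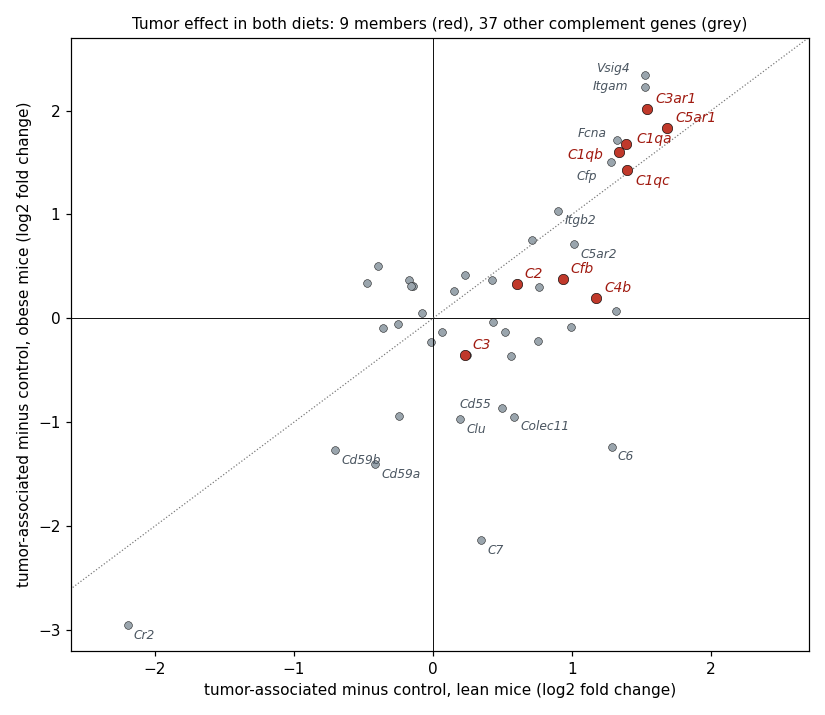
Log2 fold changes between tumor-associated and control IWAT in lean mice (horizontal) and obese mice (vertical) for the 9 genes (red) and 37 other complement genes (grey), from edgeR. The dotted line marks equal change, and names are given for the 9 genes, for genes called in a tumor comparison and for Cr2. The C1q chains, receptors, Cfp, Itgam and Vsig4 lie at the upper right, and C6, C7, Clu, Cd55, Colec11 and C3 are among the genes below 0 in obese mice only.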

How the data were processed

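RNA-sequencing counts of 22 IWAT libraries were used, assigned to diet, pad and mouse from the sample labels. Reads had been trimmed (prinseq), aligned to mm10 by STAR 2.4.0f (version per the submitters' processing notes) and summarized by HTSeq, and the authors deposited the resulting raw counts by gene symbol, not normalized. Strandedness of the counting and the annotation release are not given in the sources used here. Reads with more than 1 position made up 15.1% to 18.9% and reads on no gene 38.5% to 48.8% of the table. These and the other totals, 5 lines that name no gene, were left out.

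The counts were fitted in R 4.3.3 with edgeR 4.0.16 (TMM, default filter on low counts by group, quasi-likelihood test, Benjamini-Hochberg over 14458 genes, threshold 0.05), with 4 groups in one fit and no block. The fit was tested on simulated data. CPM use TMM totals, and log2 CPM a prior count of 2. Both pads come from the same mouse, so the mouse pairs the libraries: deviations from the group means correlated between pads at r = 0.508 (median of lean mice, 5 of 5 over 0.1) and 0.168 (obese mice, 4 of 6). Replicates of a group are separate mice. C4a and C4b transcripts were aligned with blastn 2.17.0.

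The genes and lists were chosen with earlier results of these data known. The 9 genes are always named. Of the other complement genes, those called in a tumor comparison are named, and some of those called only between diets. Genes chosen after their values were seen (Cr2) are named too. The 3 genes of smallest root mean square difference to each of the 9 were also taken, of which not all are printed. Alternatives were DESeq2 1.42.0, RLE and upper-quartile normalization, no filter, the compared groups alone, the mouse as a block, a prior count of 0.5 for ratios, and each library left out. After the data were seen, fits without both pads of obese mouse 4 and without the control pads of obese mice 1 and 3 were added.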

Additional observations from a re-analysis of the deposited data

Results flagged for a closer look

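In obese control IWAT, mouse 4 lay below the other 5 libraries by more than their spread for C1qa, at 86.3 CPM with the nearest at 111 CPM, and for C1qc, at 87.5 CPM with the nearest at 105 CPM. These were 2 of 36 gene and group combinations examined with Dixon's criterion, which chance exceeds in about 1 of 20. The C1q chains are not independent of each other. Both genes kept their calls in the tumor comparison without this library.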

How the results depend on the processing

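Of 1323 values recomputed under alternatives, 1254 kept direction and side of the threshold, 24 lost a call, 29 gained one and 16 changed sign. The number of the 9 genes called between diets in control IWAT, 2, was 1 without the filter, 5 in the fit to the compared groups alone, and 1 to 4 with libraries left out. In tumor-associated IWAT it was 4 to 7 with libraries left out, from 4, and 7 without lean tumor-associated mouse 2 or obese tumor-associated mouse 4. In the tumor comparisons it was 5 to 8 in lean and 5 to 6 in obese mice. Signs changed only near 0, apart from C3 in obese mice (0.12 without the control pads of mice 1 and 3). With upper-quartile normalization C1qa between diets in control IWAT was -0.00759 and Cfb in tumor-associated IWAT -0.0547. With libraries left out Cfb there was -0.13 to 0.22, and the obese minus lean effect was -0.10 to 0.18 for C1qc and -0.00236 to 0.36 for C5ar1. The causes were not tested. With the mouse as a block, C3 in obese mice was called lower (-0.50, edgeR adjusted p = 0.0480), and no other of 27 calls of the 9 genes changed.

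Over all genes, 605 were called in lean mice, 908 with DESeq2, 1437 in the lean libraries alone, and 183 to 952 with libraries left out. For the obese minus lean effect 711 were called, 2368 with DESeq2, 18 without the filter, and 1 to 3568 with libraries left out. Upper-quartile normalization moved the share of higher genes among those called from 78.2% to 65.7% in lean mice and from 55.9% to 42.5% between control pads. The lowest count of any of the 9 genes in a library was 40 (C5ar1).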
